A study of Homo sapiens with 27 samples.

Results

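The 36 genes described here carry out protein folding, stress sensing and protein disposal in the endoplasmic reticulum (ER). They were chosen by symbol from 67130 gene rows in each of 2 tables of raw counts. A member symbol stood on 42 rows: 36 on the primary assembly, 1 for each member, were used, and 6 on alternate sequences of the same genes held no counts and were not used. By role the members form 5 arms: 9 chaperones and their cofactors, 6 disulfide enzymes, 6 stress sensors and transcription factors, 11 degradation factors, and 4 genes of entry, exit and the ER membrane.

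RNA was sequenced from 27 libraries of human cell lines in which the chromatin remodelling gene ARID1A had been knocked out, 3 libraries in each of 9 groups. Libraries labelled 293T, an embryonic kidney line, came from knockout cells alone (KO), or from knockout cells with a lentivirus that stably expresses Flag-tagged ARID1A as wild type (WT) or as the missense form V2084D, G2087E, G2087R or K2025E. Libraries labelled Huh7, a hepatocellular carcinoma line, came from knockout cells given the same Flag-tagged WT or V2084D, or V2084D together with knockdown of STUB1 (shSTUB1), a ubiquitin ligase that works with heat shock chaperones. The labels do not say whether the replicates were separate cultures or clones, so p-values measure the spread between these libraries, which may be technical.

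Total counts ran from 33429483 to 55539529 in 293T and from 59124374 to 79915177 in Huh7. Levels are given as CPM, the count of a gene scaled to 1000000 counts per library after TMM adjustment. ARID1A stood at 119 to 195 CPM in KO and at 5727 to 116300 CPM in the 293T libraries with a transgene, except the libraries labelled G2087R replicates 1 and 2, with 294 and 326 CPM. All 9 libraries labelled Huh7 had 188 to 390 CPM of ARID1A, near the 293T knockout level, which does not show the stably expressed ARID1A of their labels. No Huh7 group of knockout cells alone is in the series, so whether they hold a transgene could not be told from these counts. Below, WT, V2084D and shSTUB1 in Huh7, and G2087R, name libraries by their labels only. On the first principal component, 2 libraries of K2025E lay apart in 293T: replicates 2 and 3 were at 106 and 68.2, and the rest at -48.7 to 41.0. Of 15 liver markers, 4 averaged 10 CPM or more in the libraries labelled Huh7 and 3 in 293T, and the markers summed to 70.7 to 110 CPM and 69 to 100 CPM. Among the defining ones, AFP reached at most 0.0640 CPM, ALB at most 1.37 CPM and TTR at most 0.0544 CPM in libraries labelled Huh7, so the label is used below only as a name. Of 7 plasma cell markers, SDC1 alone averaged 10 CPM or more in either line.

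Proteins that enter the ER are folded by chaperones of the HSP70 and HSP90 families, by the lectins calnexin and calreticulin, and by enzymes that form disulfide bonds. When unfolded proteins build up, 3 membrane sensors respond: IRE1 (encoded by ERN1) splices the mRNA of XBP1, ATF6 is cut to release a transcription factor, and PERK (EIF2AK3) slows translation and raises ATF4. ATF6 and XBP1 act through promoter elements named the ER stress response element (ERSE) and ERSE-II, while proteins that fail to fold are drawn back to the cytosol and degraded. Counts per gene do not show XBP1 splicing or ATF6 cleavage.

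Promoter sequences are shown because ATF6 and XBP1 act through these elements. The members were chosen as ER folding and stress genes, which such elements serve, so their share of matches is not independent of the choice. RefSeq windows on GRCh38.p14, from 250 bases before to 50 after each gene's start, were found for 32 of the 36 members. ERSE was searched as CCAAT, then any 9 bases, then CCACG, and ERSE-II as ATTGG, then any 1 base, then CCACG, on both strands. ERSE occurred in 7 of the 32 windows and in 22 of all 27305 windows (0.0806%). ERSE-II occurred in 3 of the 32 and in 15 of all 27305 (0.0549%). Chaperones held 5 of the 7 ERSE windows and 2 of the 3 ERSE-II windows. The capitals below mark the matches, 5′ to 3′ on the strand of the gene, and a match on the opposite strand reads as the reverse complement. For HSPA5 the whole window is given (chr9:125241294-125241593, minus strand), and for the others the match with up to 8 bases on each side, or the stretch from the first match to the second. Those stretches lie at chr12:103930208-103930347 (plus strand), chr19:12938376-12938410 (plus), chr5:179698770-179698804 (plus), chr22:49918546-49918580 (plus), chr1:236282175-236282208 (minus), chr22:28800595-28800629 (minus), chr11:119057266-119057398 (minus), chr22:21642106-21642132 (plus) and chr16:56932017-56932043 (plus).
HSPA5: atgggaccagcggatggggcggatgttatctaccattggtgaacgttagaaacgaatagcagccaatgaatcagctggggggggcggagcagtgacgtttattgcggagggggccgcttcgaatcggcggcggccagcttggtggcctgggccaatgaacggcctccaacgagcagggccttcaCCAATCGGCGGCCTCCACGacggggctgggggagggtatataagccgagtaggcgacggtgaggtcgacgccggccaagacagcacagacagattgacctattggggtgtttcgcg
HSP90B1: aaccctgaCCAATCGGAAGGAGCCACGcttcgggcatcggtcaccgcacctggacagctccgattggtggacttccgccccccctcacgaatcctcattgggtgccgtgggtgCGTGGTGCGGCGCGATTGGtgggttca
CALR: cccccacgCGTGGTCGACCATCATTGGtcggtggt
CANX: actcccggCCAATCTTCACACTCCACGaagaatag
CRELD2: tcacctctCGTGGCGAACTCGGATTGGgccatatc
ERO1B: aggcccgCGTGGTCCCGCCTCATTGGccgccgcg
XBP1: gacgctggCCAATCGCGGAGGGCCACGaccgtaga
HYOU1: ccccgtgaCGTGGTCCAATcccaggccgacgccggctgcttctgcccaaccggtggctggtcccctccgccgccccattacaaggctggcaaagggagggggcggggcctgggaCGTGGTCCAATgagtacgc
SDF2L1: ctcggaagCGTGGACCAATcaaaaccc
HERPUD1: ggacgccgATTGGGCCACGttgggaga

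HSP90B1 held 2 ERSE matches and HYOU1 held 2 ERSE-II matches. Among the members, the XBP1-type core TGACGTG (UPRE core) was found only in HYOU1, where it overlaps an ERSE-II match. The ATF4-type core, TGATG, then any 1 base, then AA, was found only in HERPUD1. These cores are short, and 2.0% and 3.67% of all windows hold them. A match is a stretch of letters and not a measured binding site.

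**Figure D1:**
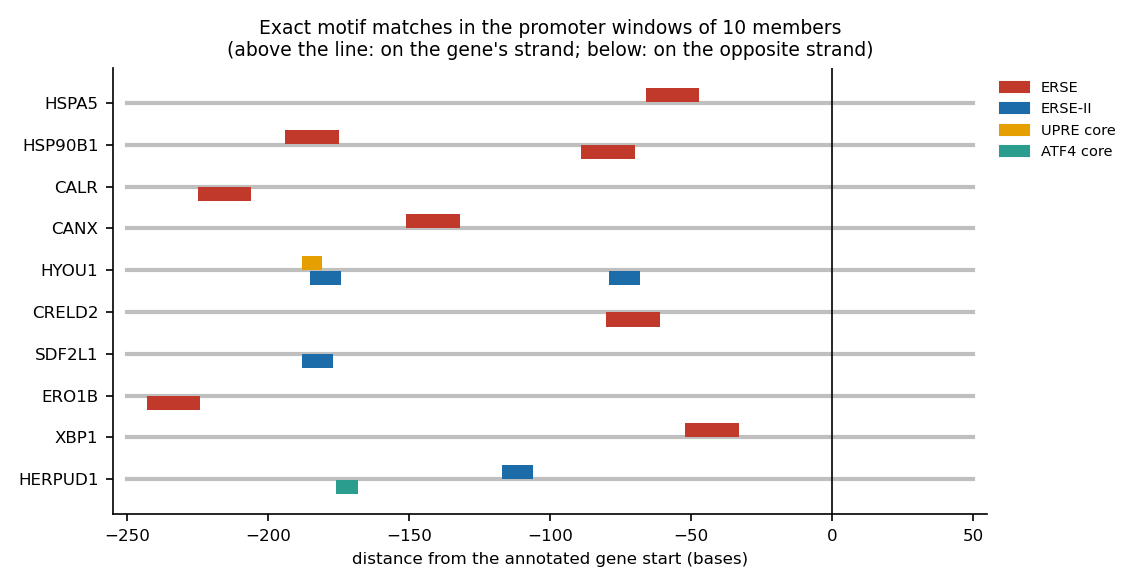
Positions of exact motif matches in the promoter windows of 10 members. The x axis is the distance in bases from the annotated gene start, each grey line is one window from 250 bases before to 50 after it, and bars are matches on the gene's strand (above the line) or on the opposite strand (below). All matches lie upstream of the start, with the nearest to it in XBP1 and HSPA5.

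Exon length was taken as the merged exons of all annotated transcripts, which may exceed the expressed mRNA, so the order between genes is approximate. Per kilobase of exon, 4 chaperones and 3 disulfide isomerases held the first 7 places in both Huh7 WT and 293T KO. In Huh7 WT the chaperone SDF2L1 and the isomerase PDIA4 came next, close behind, at 105 ± 8.21 and 104 ± 1.78 CPM per kb. Other members of those arms were lower. In Huh7 WT the highest levels were HSPA5 (the HSP70 chaperone BiP) at 375 ± 4.58 CPM per kb (SD, n = 3), CALR (calreticulin) at 335 ± 10.1, HSP90B1 (the HSP90 of the ER, GRP94) at 273 ± 13.6 and CANX (calnexin) at 171 ± 5.27. PDIA3, P4HB and PDIA6, which form and rearrange disulfide bonds, followed at 120 ± 4.38, 119 ± 7.24 and 118 ± 3.46 CPM per kb, and these 3 did not differ beyond their spread. The translocon subunit SEC61A1 (78.6 ± 1.90) and the transcription factor XBP1 (45.6 ± 1.71) lay above the chaperones HSPA13 and CRELD2 (18.3 ± 2.02 and 15.3 ± 0.953) and the oxidase ERO1A (10.5 ± 1.23). The sensors EIF2AK3 and ERN1 were at 2.22 ± 0.278 and 0.981 ± 0.0913 CPM per kb. In 293T KO the same 4 chaperones led, with CALR at 152 ± 16.6, HSP90B1 at 151 ± 7.51, CANX at 139 ± 6.34 and HSPA5 at 127 ± 3.34 CPM per kb, where the first 3 overlapped within their SDs. DERL3, a derlin of the degradation channel, was the lowest member in 293T KO at 0.141 ± 0.0276 CPM per kb. SMARCB1 exons on the opposite strand cover 77.0% of the DERL3 exon bases, and the strand setting of the counting is not given in the sources used here, so DERL3 values are uncertain. ATP6V1C2 covers 25.2% of PDIA6 and ELL3 14.8% of PDIA3 in the same way.

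**Figure D2:**
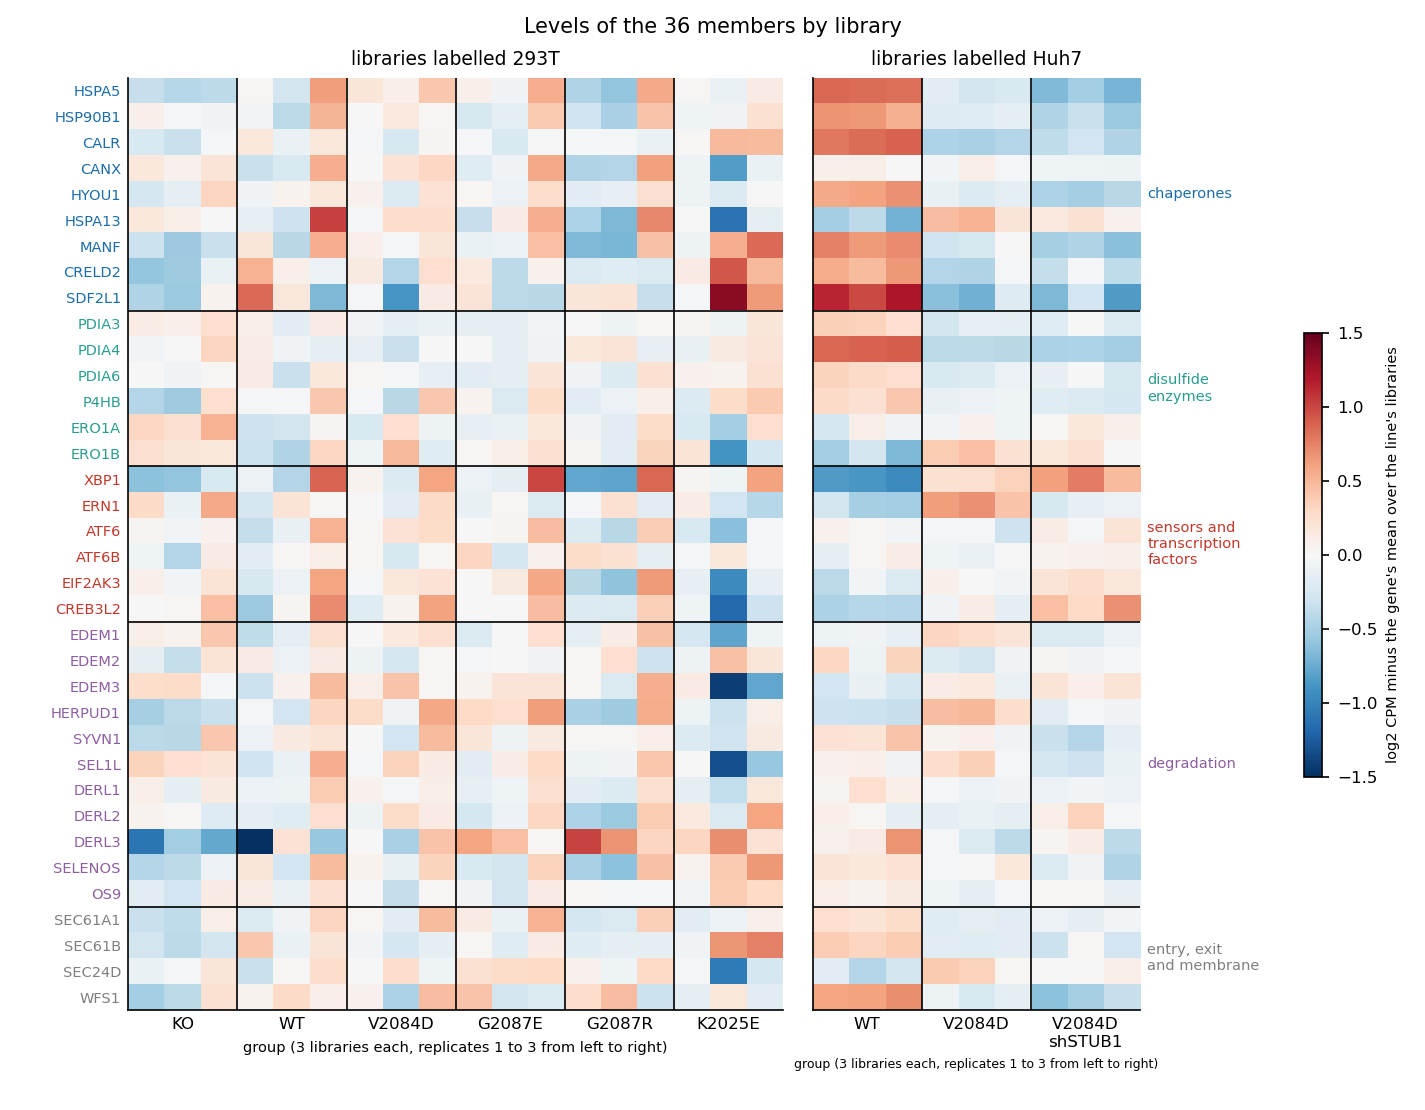
Level of each member (rows, grouped by arm) in each library (columns, grouped by label, replicates 1 to 3 from left to right), as log2 CPM minus the gene's mean over the libraries of its line. In Huh7 most chaperones are high in WT and most sensors low, while in 293T the columns of replicate 3 are high in most groups.

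The libraries labelled Huh7 V2084D were compared with those labelled Huh7 WT. ARID1A stood at 211 to 270 CPM in the former and 329 to 390 CPM in the latter, against 119 to 195 CPM in 293T KO, so these counts do not show the transgene that either label names. Between the libraries so labelled the arms parted. Chaperones and disulfide enzymes were mostly lower in those labelled V2084D, the sensors and transcription factors were higher or not called, and the degradation arm was divided. Calls are those of edgeR's quasi-likelihood test, with p-values adjusted by Benjamini and Hochberg's method over every gene tested and a threshold of 0.05. Of the 36 members 27 were called, 9 higher and 18 lower, where 42.0% of all 22510 genes tested were called, 22.0% higher and 20.0% lower. The median log2 difference was -0.20 over the members and 0.03 over all genes.

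Among chaperones 7 of 9 fell and 1 rose, with an arm median of -0.88. HSPA5 stood at 1486, 1463 and 1450 CPM in WT and at 736, 678 and 696 CPM in V2084D. The groups did not overlap, and HSPA5 fell by 1.09 on the log2 scale (SE 0.0563, adjusted p = 4.32e-07). CALR, a lectin chaperone that also binds calcium, stood at 881, 907 and 936 CPM in WT and at 367, 361 and 375 CPM in V2084D (log2 difference -1.33, SE 0.0525, adjusted p = 8.87e-08). SDF2L1, a partner of the BiP cofactor ERdj3, had the widest difference of the members, from 117, 106 and 123 CPM in WT to 34.4, 32.2 and 46.4 CPM in V2084D (log2 difference -1.64, SE 0.165). For both genes every WT library lay above every V2084D library. HYOU1, the large HSP70 that exchanges nucleotide on BiP, HSP90B1, the secreted cofactor MANF and CRELD2 fell by 0.80, 0.82, 0.90 and 0.88 on the log2 scale. CANX differed little, with 1079, 1087 and 1027 CPM in WT and 989, 1091 and 1004 CPM in V2084D (log2 difference -0.08, SE 0.0462, adjusted p = 0.217). HSPA13, a microsomal HSP70-like protein, went the other way, from 78.1, 84.8 and 68.0 CPM in WT to 153, 159 and 128 CPM in V2084D (log2 difference 0.90, SE 0.103, adjusted p = 5.54e-05).

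Among disulfide enzymes 4 of 6 fell and 1 rose, with an arm median of -0.46. PDIA4, an isomerase of the ER chaperone complex, stood at 335, 341 and 347 CPM in WT and at 140, 141 and 139 CPM in V2084D (log2 difference -1.32, SE 0.0507, adjusted p = 7.49e-08). PDIA3, PDIA6 and P4HB fell less, by 0.52, 0.49 and 0.42 on the log2 scale. The oxidases that recharge the isomerases did not follow them. ERO1A differed by 0.03 on the log2 scale (adjusted p = 0.818), and ERO1B rose from 22.2, 26.2 and 20.0 CPM to 41.4, 43.6 and 37.3 CPM (log2 difference 0.81, SE 0.107, adjusted p = 0.000143).

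Of the sensors and transcription factors 3 of 6 rose and none fell, with an arm median of 0.30. XBP1 rose most of all members, from 142, 140 and 132 CPM in WT to 300, 303 and 326 CPM in V2084D (log2 difference 1.14, SE 0.0774, adjusted p = 2.06e-06). ERN1, whose product splices XBP1 mRNA, rose from 11.8, 10.2 and 10 CPM to 22.2, 23.1 and 19.2 CPM (log2 difference 0.99, SE 0.109, adjusted p = 4.48e-05). CREB3L2, a membrane-bound transcription factor of secretory cells, rose by 0.40 on the log2 scale. The mRNAs of the other sensors were not called: ATF6 differed by -0.16, its relative ATF6B by -0.08 and EIF2AK3 by 0.20 on the log2 scale, with adjusted p of 0.206, 0.416 and 0.166. For XBP1, ERN1 and CREB3L2 no V2084D library overlapped a WT library, whereas those of ATF6, ATF6B and EIF2AK3 did overlap.

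In the degradation arm 3 of 11 rose and 4 fell, with an arm median of -0.17. HERPUD1, a scaffold of the ligase complex, rose from 51.3, 50.7 and 50 CPM to 87.6, 89.8 and 76.5 CPM (log2 difference 0.71, SE 0.0753, adjusted p = 3.22e-05). EDEM1 and EDEM3, which trim mannose from misfolded glycoproteins, rose by 0.32 and 0.25 on the log2 scale, while their relative EDEM2 fell by 0.40. The ubiquitin ligase SYVN1, DERL1 and the lectin OS9 fell by 0.29, 0.21 and 0.19 on the log2 scale. SEL1L, the partner of SYVN1, stood at 73.0, 73.6 and 67.3 CPM in WT and at 84.2, 89.9 and 68.8 CPM in V2084D, was not called (adjusted p = 0.253), and its groups overlapped. Of the remaining arm, WFS1, an ER membrane protein, and the translocon subunits SEC61B and SEC61A1 fell by 0.79, 0.56 and 0.43 on the log2 scale. SEC24D, a coat protein of vesicles leaving the ER, rose by 0.53.

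**Figure D3:**
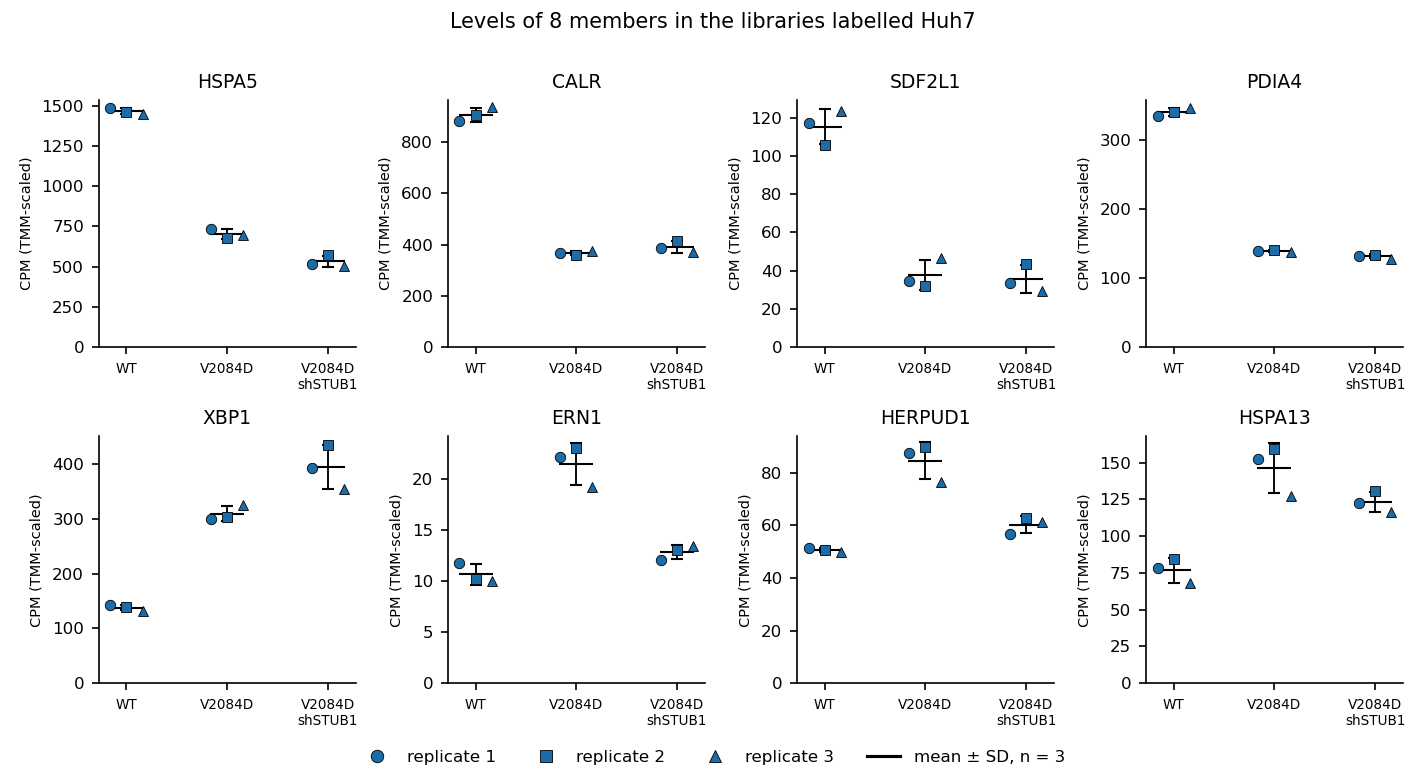
CPM (y axis, from 0) of 8 members in each Huh7 library (points, marked by replicate) with the mean and SD of each group. HSPA5, CALR, SDF2L1 and PDIA4 are lower in both V2084D groups than in WT, XBP1 and HSPA13 are higher in both, and ERN1 and HERPUD1 are highest in V2084D alone.

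Members with a promoter match went both ways. Of the 10 members with an ERSE or ERSE-II match, 6 fell (HSPA5, HSP90B1, CALR, CRELD2, HYOU1 and SDF2L1), 3 rose (XBP1, ERO1B and HERPUD1) and CANX was not called. Of the 22 with a window and no match, 10 fell, 5 rose and 7 were not called. The median log2 difference was -0.81 with a match and -0.16 without. No test was made of this split. The search took exact matches only, so members without a match are not known to lack the elements.

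Other genes of the pathway were listed by function. In the PERK and ATF4 arm 14 of 14 genes rose, with a median of 1.51. Asparagine synthetase ASNS rose by 2.64 on the log2 scale (SE 0.0625), the glutathione-degrading CHAC1 by 2.35 (SE 0.0776) and DDIT4, an inhibitor of mTORC1, by 2.77 (SE 0.108). Of 18 genes on an ATF6 and XBP1 list outside the members 8 rose and 4 fell, with a median of 0.13. SEC63 and MBTPS2 rose by 0.70 and 0.67 and DNAJB11 fell by 0.63. The list is of target genes, except MBTPS1 and MBTPS2, which encode the proteases that cut ATF6. Of 14 retrotranslocation genes 4 rose and 6 fell, VCP by 1.12 and AUP1 by 0.54, with MAN1B1 up by 0.49. Of 17 genes of the translocon, signal peptidase and oligosaccharyl transferase 3 rose and 3 fell, with RPN1, DDOST and SSR4 down by 0.30, 0.25 and 0.41. These counts stand beside the 42.0% called over all genes.

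Heat shock genes moved with the chaperones. The list of 12 holds mainly cytosolic ones, and also HSPD1 and HSPE1, which encode the mitochondrial chaperonin. Of the 12 genes 11 fell and none rose, with a median of -1.53. HSPA8 fell by 2.88 on the log2 scale, HSPA1B by 3.33 and HSPA1A by 3.42. HSPA1A and HSPA1B are near-identical copies, so reads may have been split between them. The 12 genes summed to 10600 to 10790 CPM in Huh7 WT, to 3258 to 3397 CPM in V2084D and to 3079 to 3337 CPM with shSTUB1. The 9 chaperones summed to 5335 to 5459, 3292 to 3328 and 2794 to 3044 CPM in the same groups. ARID1A itself was lower in V2084D than in WT by 0.55 (adjusted p = 0.0325). The part of either in the members' differences was not tested.

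The libraries labelled V2084D with shSTUB1 were compared with those labelled V2084D alone, with ARID1A at 188 to 344 and 211 to 270 CPM, again near the 293T knockout level. STUB1 stood at 247, 247 and 290 CPM in V2084D and at 69.4, 83.3 and 65.9 CPM with shSTUB1. Of the members 2 rose and 10 fell, where 21.5% of all genes were called, 10.8% higher and 10.8% lower. The median was -0.05 over the members and -0.0035 over all genes. Of the chaperones 4 of 9 fell and none rose, of the sensors and transcription factors 2 rose and 1 fell, and no disulfide enzyme was called (1 at an unadjusted p below 0.05). The arm medians were -0.25, 0.21 and -0.02.

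HSPA5 stood at 518, 573 and 506 CPM with shSTUB1, below all V2084D libraries (log2 difference -0.40, SE 0.0558, adjusted p = 0.00084). HSP90B1, HYOU1 and MANF fell by 0.27, 0.31 and 0.35. CALR, CRELD2 and SDF2L1 were not called, with differences of 0.09, 0.04 and -0.09. XBP1 stood at 393, 436 and 355 CPM, above all V2084D libraries (log2 difference 0.35, SE 0.0764, adjusted p = 0.00922), and CREB3L2 rose by 0.52. ERN1 fell to 12.1, 13.1 and 13.4 CPM (log2 difference -0.74, SE 0.109, adjusted p = 0.00115), so XBP1 and ERN1 mRNA parted here.

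In the degradation arm 4 of 11 fell and none rose. HERPUD1 stood at 56.6, 62.9 and 61.3 CPM with shSTUB1, below all V2084D libraries (log2 difference -0.49, SE 0.0751, adjusted p = 0.00146). EDEM1, SEL1L and SYVN1 fell by 0.44, 0.43 and 0.33, and WFS1 by 0.34. The call of SYVN1 was lost when any of V2084D replicates 1 and 2 or shSTUB1 replicates 1 and 2 was left out (largest adjusted p 0.0894), and with offsets for GC content and length (0.0563). The call of SEL1L was lost without V2084D replicate 1 or 2 or shSTUB1 replicate 1, that of WFS1 without replicate 1 of either group, and that of MANF without shSTUB1 replicate 1 or 3 (largest adjusted p 0.0596, 0.0732 and 0.0515). Over all 14 alternative fits the WFS1 call was lost in 5, with an adjusted p of up to 0.118. Outside the members, 1 of 14 PERK and ATF4 genes rose and 9 fell, DDIT4 by 1.45, CHAC1 by 0.55 and ASNS by 0.42. None of the 18 genes on the ATF6 and XBP1 list was called by edgeR's quasi-likelihood test (4 at an unadjusted p below 0.05). The smallest p there were those of ERLEC1, PDIA5 and UGGT1, with log2 differences of -0.23, -0.25 and 0.25. Of the retrotranslocation genes 2 of 14 rose, UBE2J1 by 0.47, and 2 fell, MAN1B1 by 0.37 and VCP by 0.25. Of the translocon group SEC11A alone rose, by 0.35, while RPN1 and DDOST, at 0.13 and -0.14, were not called. Of the heat shock genes 5 of 12 fell, HSPA8 by 0.99, HSPA1B by 1.45 and HSPA1A by 1.45.

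Against the libraries labelled WT, those labelled shSTUB1 had 8 members higher and 18 lower, where 45.1% of all genes were called, 23.5% higher and 21.7% lower. The V2084D libraries enter the second comparison and the WT libraries are shared by the first and this one, so the calls are not independent. HSPA5 was lower than in WT by 1.49 on the log2 scale, PDIA4 by 1.40, CALR by 1.24 and SDF2L1 by 1.73. MANF was lower by 1.26, WFS1 by 1.14, HYOU1 by 1.11, HSP90B1 by 1.09 and P4HB by 0.55. CREB3L2 was higher by 0.91, HSPA13 by 0.65, ERO1B by 0.59 and EDEM3 by 0.35. The EDEM3 call was lost in 2 of 14 alternative fits, with an adjusted p of up to 0.121. XBP1 was higher by 1.49, while ERN1 was not called (log2 difference 0.25, adjusted p = 0.0915). HERPUD1 was higher by 0.22 (adjusted p = 0.0319), a call lost when shSTUB1 replicate 2 or 3 or any WT library was left out (adjusted p 0.0614 to 0.0944). Over all 14 alternative fits the HERPUD1 call was lost in 8, with an adjusted p of up to 0.138. SEC24D was higher by 0.30, a call lost without shSTUB1 replicate 1 or 3 or WT replicate 2 or 3 (largest adjusted p 0.132). EIF2AK3 was higher by 0.40 (adjusted p = 0.0108), which was lost with offsets for GC content and length (adjusted p 0.204).

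**Figure D4:**
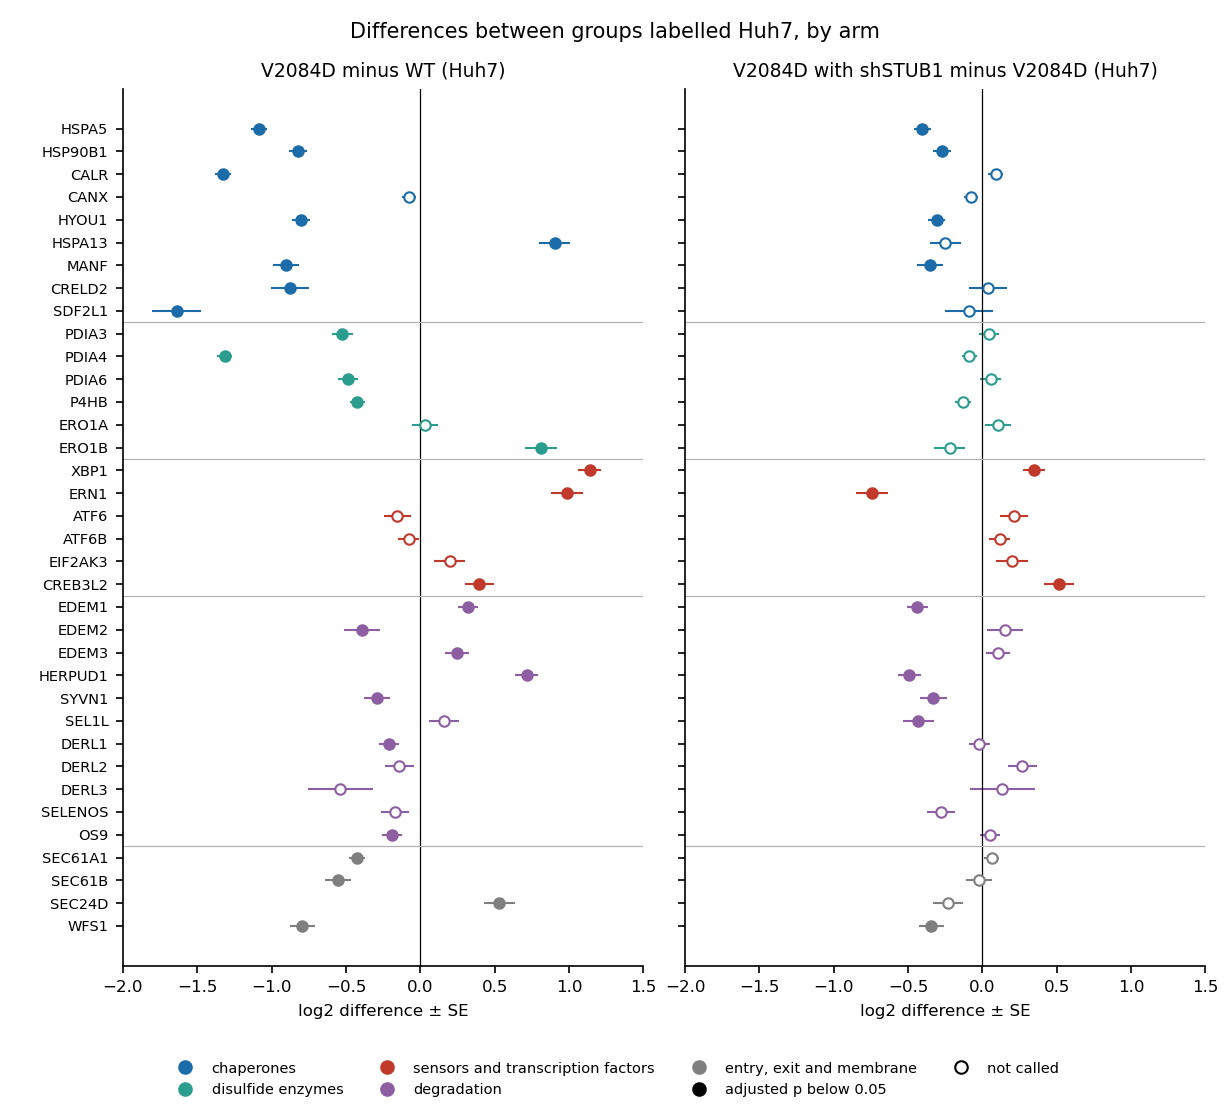
Log2 difference (x axis) with its SE for each member in Huh7, V2084D minus WT on the left and V2084D with shSTUB1 minus V2084D on the right, coloured by arm. Filled points were called at an adjusted p below 0.05. XBP1 and CREB3L2 lie to the right in both panels and HSPA5 to the left, while ERN1 and HERPUD1 change sides. The panels share the V2084D libraries.

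In 293T, ARID1A forms were compared with KO and with WT to see what giving back ARID1A changes. No member was called in WT, V2084D, G2087E or G2087R against KO, by edgeR's quasi-likelihood test or by DESeq2. No gene at all was called by edgeR there, a background of 0%. That includes ARID1A, at 119.3 to 194.5 CPM in KO and 42890 to 116300 CPM in V2084D. In counts simulated on the 293T fit for K2025E minus KO, 0 of 100 genes changed by 0.5 on the log2 scale were called. Of 100 changed by 1, 35 were called. No other genes were changed there, and the 4 contrasts named above were not simulated. The lack of calls therefore does not show that members were unchanged. In the 4 comparisons with KO, 4, 2, 3 and 1 members had an unadjusted p below 0.05, where 11.0%, 4.83%, 5.66% and 4.31% of all genes did. The libraries of 5, 7, 9 and 3 members did not overlap with those of KO, where this held for 17.5%, 13.8%, 16.4% and 10.5% of all genes. HSPA5 stood at 511, 485 and 494 CPM in KO and, with no overlap, in WT at 663, 537 and 1002 CPM (log2 difference 0.57, SE 0.261, adjusted p = 0.433). It stood at 739, 688 and 861 CPM in V2084D and at 683, 629 and 951 CPM in G2087E. In the libraries labelled G2087R, replicates 1 and 2, with ARID1A near the KO level, had 474 and 431 CPM, and replicate 3 had 962 CPM. In G2087R minus KO the groups therefore overlapped. 

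HERPUD1 had the smallest unadjusted p among the members in V2084D and G2087E against KO. It stood at 40.8, 43.7 and 45.7 CPM in KO, at 69.8, 55.8 and 86.4 CPM in V2084D and at 71.0, 68.7 and 88.9 CPM in G2087E. The log2 differences were 0.71 and 0.81, with adjusted p of 0.989 and 0.853. In WT minus KO the members with the smallest p were SEC61B, ERO1A, CRELD2 and HSPA5, with log2 differences of 0.50, -0.53, 0.58 and 0.57. In G2087R minus KO they were DERL3, ERO1A, HERPUD1 and WFS1, with 1.48, -0.32, 0.36 and 0.37.

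Against KO, K2025E was the form with called members. CALR, CRELD2 and SEC61B rose, 3 higher and none lower, where 12.9% of all 23201 genes were called, 7.17% higher and 5.72% lower. The libraries of 16 members did not overlap, where this held for 30.3% of all genes. CALR stood at 402, 372 and 461 CPM in KO and at 475, 655 and 650 CPM in K2025E (log2 difference 0.53, SE 0.148, adjusted p = 0.0268). CRELD2 stood at 33.3, 34.4 and 46.5 CPM in KO and at 54.2, 94.9 and 69.7 CPM in K2025E (log2 difference 0.94, SE 0.232, adjusted p = 0.0157). SEC61B, the small translocon subunit, stood at 52.1, 48.0 and 52.1 CPM in KO and at 61.0, 100 and 107 CPM in K2025E (log2 difference 0.82, SE 0.187, adjusted p = 0.0111). In each of these genes the K2025E libraries lay above all KO libraries, with replicate 1 nearest to KO. The calls rested on single libraries. No member was called without K2025E replicate 2, K2025E replicate 3 or KO replicate 2, and SEC61B alone was called without KO replicate 1. With only the 2 compared groups in the fit none was called, where 436 of all genes were. DESeq2 called 6 higher and 1 lower, where it called 4527 of all genes. Without K2025E replicate 1 the count was 8, 5 higher and 3 lower, where 5270 of all genes were called. With all libraries, edgeR had called 2989 of all genes. Outside the members, 4 of 14 PERK and ATF4 genes rose and 1 fell, with ATF4 at 0.86, CHAC1 at 1.22 and ATF3 at -0.87 on the log2 scale. Of the translocon group 3 of 17 rose, SSR4 by 0.84, SEC61G by 0.92 and SSR2 by 0.77. Of the ATF6 and XBP1 list 2 of 18 rose, FKBP2 by 1.0 and PPIB by 0.76, and UGGT1, at -0.77, was not called. Of the retrotranslocation genes UBE2J2 and UBXN6 rose, by 0.72 and 0.78, and ERLIN2 fell by 0.71. Of the heat shock genes HSPE1 and HSP90AB1 rose, by 0.82 and 0.52, and HSPA8, at 0.66, was not called. Of the 75 genes on these lists 13 were higher and 2 lower in all, and these calls too rested on single libraries. None of the 75 was called without K2025E replicate 2, 2 without K2025E replicate 3 or KO replicate 1, and 4 without KO replicate 2, where 1, 618, 1078 and 951 of all genes were.

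Set against WT in place of KO, no member was called for any form by either tool. The background was 0% for V2084D and G2087E and 0.00431% for G2087R and K2025E. Here too the lack of calls does not show that members were unchanged. At an unadjusted p below 0.05 stood 0, 0, 1 and 3 members for V2084D, G2087E, G2087R and K2025E, where 2.01%, 2.05%, 4.45% and 8.27% of all genes did. In V2084D minus WT the smallest p among the members was that of SEC61B, with a log2 difference of -0.32 (SE 0.186, adjusted p = 1.0). In K2025E minus WT, SEL1L had a log2 difference of -0.63 and EDEM3 one of -0.67, both with an adjusted p of 0.601. Without K2025E replicate 1 these 2 members were called lower (adjusted p 0.0409 and 0.0231), where 1048 of all genes were called.

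Within the 293T groups the members varied with the replicate number. Replicate 3 was the highest of the 3 libraries for 26 of 36 members in KO, 27 in WT, 26 in V2084D, 27 in G2087E, 26 in G2087R and 19 in K2025E. Of all genes tested, 28.1% to 43.9% were highest in replicate 3. Among the 5 groups with a transgene, ARID1A was also highest in replicate 3 in each, and in KO replicate 3 it was lowest, at 119 CPM. XBP1 stood at 153, 120 and 298 CPM in WT, 153, 148 and 326 CPM in G2087E and 106, 108 and 139 CPM in KO. In Huh7 replicate 3 was highest for 14, 12 and 12 members, and replicate 2 of shSTUB1 was highest for 22, where 41% of all genes were. Whether the replicate numbers mark a shared day or batch is not given in the labels.

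**Figure D5:**
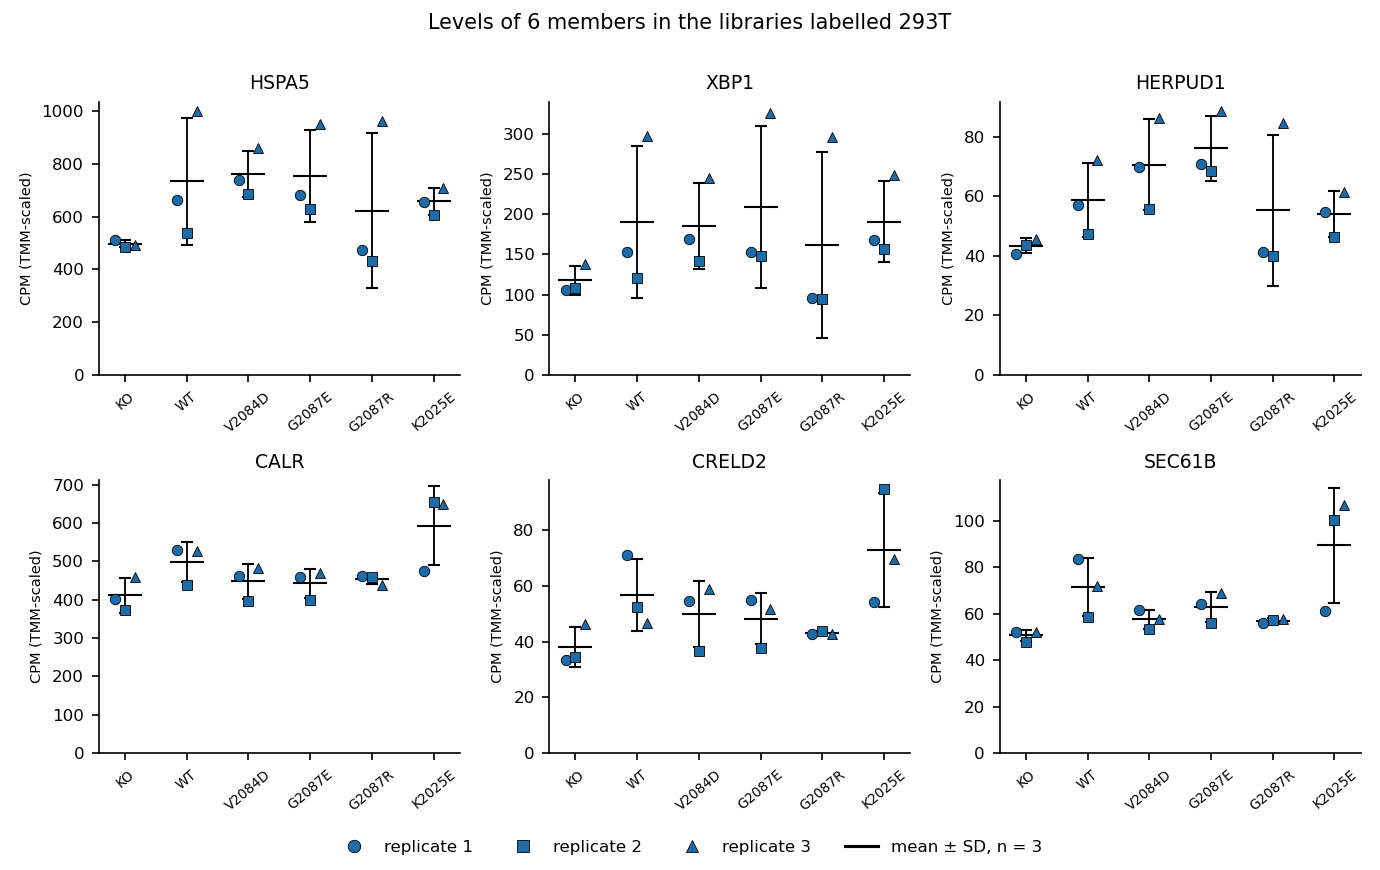
CPM (y axis, from 0) of 6 members in each 293T library (points, marked by replicate) with the mean and SD of each group. Triangles, replicate 3, are the highest points for XBP1 and HERPUD1 in all 6 groups, CALR and SEC61B are highest in K2025E replicates 2 and 3, and CRELD2 is highest in K2025E replicate 2.

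Over the 18 libraries of 293T the genes whose log2 CPM was most like that of HSPA5 were TANGO6 (Pearson r 0.951), the cytosolic chaperone HSPA8 (0.95), the cochaperone DNAJB4 (0.947), XBP1 (0.945) and UBAP1 (0.937). HERPUD1 followed at rank 14 of 23201 genes (0.923). The other 8 chaperones ran from 0.805 for MANF, 0.791 for HSP90B1, 0.679 for HSPA13, 0.643 for CANX and 0.567 for HYOU1 to 0.263 for CALR, 0.243 for CRELD2 and -0.213 for SDF2L1. The disulfide enzymes ran from 0.567 for PDIA6 and 0.547 for P4HB to -0.496 for PDIA4. These values describe libraries that share groups and replicate numbers, and no p is given. The Huh7 libraries lie in separate groups for HSPA5, so no pooled correlation is given there. In Huh7, XBP1 was highest in the shSTUB1 group, where HSPA5 was lowest. In 293T both genes had their 3 highest levels in replicate 3 of WT, G2087E and G2087R.

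Levels in the libraries labelled Huh7 WT were compared with those in 293T WT in a joint fit of both lines, with ARID1A at 329 to 390 CPM in the former and 5727 to 63180 CPM in the latter. Of the members 11 were higher in Huh7 and 1 lower, where 23.0% of all 24546 genes were called, 10.5% higher and 12.5% lower. Those higher were 6 chaperones (HSPA5, HSP90B1, CALR, HYOU1, MANF and SDF2L1), the enzymes PDIA3, PDIA4 and PDIA6, and EDEM1 and DERL3. HSPA5 was higher by 1.0 on the log2 scale (SE 0.226, adjusted p = 0.0025) and PDIA4 by 1.81 (SE 0.122, adjusted p = 3.27e-10). The others were higher by 0.78 for HSP90B1, 0.86 for CALR, 0.52 for HYOU1, 0.92 for MANF, 1.83 for SDF2L1, 0.87 for PDIA3, 0.52 for PDIA6, 0.78 for EDEM1 and 2.48 for DERL3. ATF6B was the 1 member lower, by 0.64 (SE 0.152, adjusted p = 0.00357). With offsets for GC content and length the counts were 16 higher and 4 lower, where 7679 of all genes were called, against 5638 without the offsets. The line cannot be told apart from any difference in handling, since each line was deposited as its own table. Without 293T WT replicate 2 the calls of HSP90B1 and MANF were lost (adjusted p 0.0558 and 0.0745).

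The difference between libraries labelled V2084D and WT was then compared between the lines as an interaction. ARID1A stood at 211 to 390 CPM in these Huh7 libraries, near the 293T knockout level, and at 5727 to 116300 CPM in those of 293T. The contrast differed for 5 members, 4 lower in Huh7 than in 293T and 1 higher. Of all genes 9.72% were called, 4.21% lower and 5.50% higher. With offsets for GC content and length 11 were lower and 1 higher, where 4147 of all genes were called, against 2385 without the offsets. CALR differed by -1.33 in Huh7 and by -0.16 in 293T, an interaction of -1.15 (SE 0.174, adjusted p = 0.000142). PDIA4 gave -1.16 (SE 0.168, adjusted p = 9.34e-05), HYOU1 -0.75 (SE 0.202, adjusted p = 0.018) and HSPA5 -1.11 (SE 0.318, adjusted p = 0.0261). ERN1 gave 0.97 (SE 0.255, adjusted p = 0.0162). The HSPA5 call was lost without 293T V2084D replicate 3, 293T WT replicate 1 or 2, Huh7 V2084D replicate 2 or 3 or any Huh7 WT library (adjusted p 0.0503 to 0.0746), and that of HYOU1 without 293T V2084D replicate 3 (adjusted p 0.0516). XBP1, with an interaction of 1.20 (SE 0.516, adjusted p = 0.153), was not shown to differ between the lines.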

How the data were processed

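Total RNA (Trizol and miRNeasy) went into NEBNext Ultra II libraries, per the labels' protocols. The values are the raw counts per gene that the authors deposited, in 1 table for each cell line. The submitters' processing notes name edgeR and genome build GRCh38. The aligner, the counting tool, its annotation and its strand setting are not given in the sources used here. Whole numbers were checked in all 27 libraries, and every column matched a sample by its title. Genes were placed with GENCODE 29.

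Tests ran under R 4.3.3 and used the quasi-likelihood method of edgeR 4.0.16 (TMM scaling, filterByExpr at a minimum count of 10 and a minimum total of 15), with all groups of a line in 1 fit and p adjusted by Benjamini-Hochberg over all genes. A standard error is the log2 difference over the square root of F. All 36 members passed the filter in each fit. DESeq2 1.42.0 was an alternative. Log2 CPM used a prior count of 2. The scripts were tested on simulated data. Chi-square per degree of freedom between replicate libraries was 11.1 to 310, so the spread between libraries and not depth sets the precision.

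The members, the arms and the other gene lists were chosen with earlier results of these data known. A log2 difference is given for all members called in a comparison with 1 to 12 calls, at least for the 8 with the smallest p in each direction with more, and for some of the 4 with the smallest p with none. Other members singled out, and those given with SE and p, were chosen after the values were seen. From each other list the 3 genes with the smallest p are named for K2025E minus KO and, in Huh7, for V2084D against WT and for shSTUB1 against V2084D, and in other comparisons the lists are not described in the report. The lists are the PERK and ATF4 arm, the ATF6 and XBP1 list, retrotranslocation, the translocon group and heat shock, with liver and plasma cell markers. Alternatives were RLE size factors, DESeq2, other filters, a fit of the compared groups only, the replicate number as a block, each library left out in turn and fits without libraries that stand apart. Offsets for GC content and length, alone and with the block, were added after seeing the data. Deviations of libraries of equal number correlated above 0.1 in all 3 pairs only for G2087R minus WT in 293T.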

Additional observations from a re-analysis of the deposited data

Results flagged for a closer look

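Of the 36 members 5 differed between the lines in the contrast of libraries labelled V2084D and WT, by an interaction term in edgeR's quasi-likelihood test. Given as the log2 difference in Huh7 minus that in 293T, the values were -1.11 for HSPA5 (BiP), -1.15 for CALR (calreticulin), -0.75 for HYOU1 (a large HSP70) and -1.16 for PDIA4 (a disulfide isomerase). ERN1, which encodes the sensor IRE1, had 0.97. The line was deposited with its own table and cannot be told apart from its handling. The level of ARID1A differed as well, at 42890 to 116300 CPM in the 293T V2084D libraries and 211 to 270 CPM in those of Huh7. The Huh7 values lay near the 293T knockout level, and the part of ARID1A was not tested. No group has more than 3 libraries, so single outlying libraries were not tested.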

How the results depend on the processing

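The Huh7 counts kept within 1.5 times their value under every alternative that keeps all libraries. Leaving out 1 library at a time gave 22 to 26 members for V2084D minus WT, 8 to 14 for shSTUB1 minus V2084D and 23 to 25 for shSTUB1 minus WT, 10 to 14 for Huh7 WT minus 293T WT, and 3 to 6 for the difference between the lines, with 3 without 293T V2084D replicate 3. Of 224 alternative counts 205 stayed within that limit and 19 moved. For K2025E minus KO the count of 3 became 5 with a filter of 1 CPM, 7 with DESeq2 and 6 with GC and length offsets. Over all genes 3493, 4527 and 3662 were called there. The count was 0 with the compared groups only, where 436 of all genes were called, and 0 to 8 leaving out 1 library. Without K2025E replicates 2 and 3 only 1 library is left, assumed to vary like the other groups, so no count is given. K2025E minus WT gave 0 to 2. With GC and length offsets, 20 members were called between the lines and 12 in the difference of V2084D minus WT, where 7679 and 4147 of all genes were.

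With the replicate number as a block the counts were 8 for K2025E minus KO and 8 for the difference between the lines, where 3605 and 2605 of all genes were called. With the block and the offsets together they were 11 and 16, and 23 between the lines, where 5430, 5215 and 6178 of all genes were called. The numbers paired libraries only for G2087R minus WT, where the correlations were 0.129, 0.171 and 0.306 and no member was called with or without the block. The block ended the HERPUD1 call in shSTUB1 minus WT, and with the offsets that of HYOU1 in shSTUB1 minus V2084D.

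For V2084D minus WT in Huh7 the offsets, alone and with the block, gave arm medians of -0.983 and -0.984 for the 9 chaperones, 0.199 and 0.201 for sensors, -0.234 and -0.232 for degradation and -0.587 in both for entry and exit. For shSTUB1 minus WT they gave -1.2 in both for chaperones, and -0.531 and -0.537 for entry and exit. Between the lines they gave 0.483 and 0.509 for entry and exit, and 0.219 with the block for degradation. Leaving out 1 library gave medians for V2084D minus WT of -1.0 to -0.807 for chaperones, 0.253 to 0.348 for sensors and -0.211 to -0.136 for degradation. The ranges were 0.162 to 0.25 for sensors in shSTUB1 minus V2084D and, in shSTUB1 minus WT, -0.517 to -0.407 for disulfide enzymes and -0.222 to -0.173 for degradation. Between the lines they were 0.59 to 0.928 for chaperones, 0.361 to 0.703 for disulfide enzymes and -0.587 to -0.0858 for sensors.
For K2025E minus KO they were -0.00641 to 0.28 for degradation and 0.0466 to 0.339 for entry and exit, and degradation was -0.00991 without K2025E replicates 2 and 3.

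Of the differences of named members 4 changed sign, none of them called. HERPUD1 in G2087R minus KO was -0.108 without G2087R replicate 3 and up to 0.545 without another library. Without G2087R replicates 1 and 2, which leaves 1 library assumed to vary like the other groups, WFS1 against KO was -0.124 and MANF against WT was 0.298. SDF2L1 in G2087E minus WT was 0.00532 without WT replicate 1 and down to -0.733 without another. The causes were not tested. Depth did not limit the members other than DERL3, whose lowest count was 15.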

Other observations

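Of the 12 heat shock genes, which are not members, none was called in 293T V2084D minus WT by edgeR's quasi-likelihood test. An unadjusted p below 0.05 was held by 5 of them, and by 2.01% of all genes. DESeq2 called HSPA6 (adjusted p = 0.0146). With only the compared groups in the edgeR fit, and likewise without the libraries labelled G2087R replicates 1 and 2, HSPA6, HSPA1A and HSPA1B were called, 3 of the 12 (largest adjusted p 0.00317 and 0.00473). Over the 12 genes the log2 differences ran from -0.15 to 6.04 with a median of 0.55. HSP90AB1, HSPB1, HSPD1 and HSPE1 differed little, at 0.10, -0.15, 0.20 and -0.05, and their groups overlapped, as did those of HSPA8 and BAG3. HSPA1A, HSPA1B and HSPA6 did not overlap, at 2.39, 2.38 and 6.04. For DNAJB1, HSPH1 and HSP90AA1 too, every V2084D library lay above every WT library. The share of all genes without overlap was not counted for this contrast. HSPA1A is given in full, chosen after its values were seen. HSPA1A stood at 163 to 286 CPM in KO, 298 to 418 CPM in WT and 232 to 380 CPM in K2025E. It stood at 1027 to 2827 CPM in V2084D and at 1223 to 2368 CPM in G2087E. In the libraries labelled G2087R it stood at 279 and 301 CPM in replicates 1 and 2 and at 2058 CPM in replicate 3. The log2 difference of HSPA1A between V2084D and WT was 2.39 (SE 0.575, adjusted p = 1.0 in edgeR's quasi-likelihood test). The 9 ER chaperones summed to 3127, 3161 and 3522 CPM in V2084D and to 2959, 2587 and 4219 CPM in WT, so these groups overlapped. In Huh7 the same contrast was negative for HSPA1A, at -3.42 on the log2 scale.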
